A study of Mus musculus with 12 samples.

Results

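The effect of losing 1 allele of Kdm6b was examined on the Asxl1 mutant background, by setting LK cells of Asxl1Y588XTg Kdm6bΔ/+ mice against LK cells of Asxl1Y588XTg mice. LK (Lin-cKit+) cells are a progenitor fraction of the bone marrow, chosen by the receptor cKit and the absence of lineage markers, and the fraction holds hematopoietic stem cells (HSCs) and their progenitors. The members are the 6 samples of these 2 genotypes, 3 mice each, out of 12 samples in the series. The other 6 samples, 3 WT and 3 Kdm6bΔ/+, are used where a second, separate measurement of the same deletion is of help. All mice are labelled C57BL/6, were about a year old by the study's methods, and were sampled one library per mouse. The Asxl1Y588XTg transgene expresses a truncated ASXL1 protein and is carried by both genotypes compared. Kdm6bΔ/+ denotes a floxed Kdm6b allele removed by Mx1Cre after injection of pI:pC, a double-stranded RNA that induces interferon. The sources do not say whether the Asxl1Y588XTg and WT mice of this experiment carried Mx1Cre or received pI:pC, so these exposures and the deletion cannot be told apart.

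KDM6B is an enzyme of the JmjC family that removes methyl groups from lysine 27 of histone H3, the repressive mark that the PRC2 complex writes. ASXL1 is a chromatin protein that works with the deubiquitinase BAP1 and is often truncated in myeloid neoplasms. HSC identity depends on transcription factors such as MEIS1, GATA2 and PRDM16.

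The total count on genes was between 16738503 and 17471909 in the Asxl1Y588XTg libraries and between 17080728 and 23482563 in the Asxl1Y588XTg Kdm6bΔ/+ libraries. Values are given as normalized counts, counts scaled to the mean library size after TMM scaling, in the order of replicates 1, 2 and 3. Kdm6b (chromosome 11, 69398508 to 69413675) had normalized counts of 2270.4, 2303 and 2187 in Asxl1Y588XTg and 1649, 1873 and 1909 in Asxl1Y588XTg Kdm6bΔ/+ libraries. Every double-mutant library lay below every Asxl1Y588XTg library, but the log2 fold change of −0.30 (SE 0.07, edgeR adjusted p = 0.0717) did not pass the threshold. Reads on exons outside the deleted part still count toward Kdm6b, and the gene overlaps Kdm6bos. Transcripts of the Y-linked gene Ddx3y were present in all 3 double-mutant libraries and in 1 of the 3 Asxl1Y588XTg libraries, replicate 2, so sex is partly confounded with the genotype. Ddx3y had 708 and 1039 counts in Kdm6bΔ/+ replicates 1 and 3, 8 in replicate 2, and 0, 1 and 2 in WT. Sex is therefore partly confounded, in the same direction, in Kdm6bΔ/+ against WT as well. In the double mutant against WT it is fully confounded with genotype. Kit, which defines the sorted cells, was detected in every library, at 6039 to 7759 in Asxl1Y588XTg and 5801 to 6306 in double-mutant libraries. Mature granulocyte markers (Ltf, Camp, Ngp, S100a8, S100a9 and Ly6g) were abundant as well. They summed to between 849751 and 995625 in Asxl1Y588XTg and between 916539 and 1120200 in double-mutant libraries, which overlap. The part of mature cells in the results was not tested.

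On the Asxl1 mutant background, far more genes were lower than higher in cells that had lost 1 Kdm6b allele. Of 15825 genes tested, 252 (1.59%) were called lower and 23 (0.145%) higher in Asxl1Y588XTg Kdm6bΔ/+ than in Asxl1Y588XTg cells, with an edgeR adjusted p under 0.05 and a fold change above 1.5. Of the genes that fell, 193 fell by more than 2-fold and 40 by more than 4-fold, and 240 of the 246 with a known biotype are protein coding. Of the 22 rises with a known biotype, 13 are protein coding, 3 are immunoglobulin genes and 3 are pseudogenes. In all 275 the libraries of the 2 groups did not overlap, as was the case for 14.1% of all genes tested on the lower side and 7.11% on the higher side. In bulk RNA, fewer cells of a type and less RNA per cell cannot be told apart.

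The counts depended on single libraries. The falls numbered 49 without double-mutant replicate 1, 54 without double-mutant replicate 2, 154 without Asxl1Y588XTg replicate 1 and 159 without Asxl1Y588XTg replicate 2, and the rises 7, 10, 56 and 34. A fit of all 4 genotypes gave 150 falls and 12 rises, and 43 and 5 once it held a Y-linked term. As a description of the 252 genes called lower, the median log2 difference between the double-mutant mean and a single Asxl1Y588XTg library was −1.48 for replicate 2, the library with Y-linked transcripts, and −1.501 and −1.18 for replicates 1 and 3. The same libraries were used to call these genes, which fixes the sign, so these values cannot tell the part of sex.

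Transcription factors of HSCs were among the genes that fell. Of 29 tested, 6 were called lower (Meis1, Gata2, Prdm16, Mecom, Mycn and Nkx2-3), 0 were called higher, and the median log2 fold change was −0.43, against −0.004 for all genes tested. The share of all genes tested that were called lower was 1.59%. Meis1 (chromosome 11, 18879817 to 19018985), a homeobox cofactor of HSCs and of leukemia, had normalized counts of 1051, 1125 and 968 in Asxl1Y588XTg and 459.6, 441 and 583 in Asxl1Y588XTg Kdm6bΔ/+. The groups did not overlap, and the log2 fold change was −1.07 (SE 0.11, edgeR adjusted p = 0.00265). Meis1 passed the threshold in all 13 alternatives.

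Gata2 (chromosome 6, 88193891 to 88207032), a zinc finger factor needed for HSC survival, fell from 1539, 1669.6 and 1536 to 821, 616 and 869.6, a log2 fold change of −1.02 (SE 0.12, edgeR adjusted p = 0.00686). Prdm16 (chromosome 4, 154316125 to 154636873), which maintains HSCs, fell from 309.8, 282 and 225 to 119.5, 114 and 134, with −1.13 (SE 0.15, edgeR adjusted p = 0.00695). Both genes ended close to the levels of the 3 WT libraries, which were 1056, 736 and 1069 for Gata2 and 97.9, 42.6 and 114 for Prdm16. Mycn, a MYC family factor, fell from 409, 343 and 412 to 129, 105 and 182, with −1.47 (SE 0.19, edgeR adjusted p = 0.00874). Hlf, another HSC factor and chosen after its values were seen, had a log2 fold change of −1.22 (SE 0.27) but missed the threshold, with an edgeR adjusted p of 0.119. Non-coding genes overlap Meis1 and Prdm16, and it is not stated whether strand was used in counting.

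**Figure D1:**
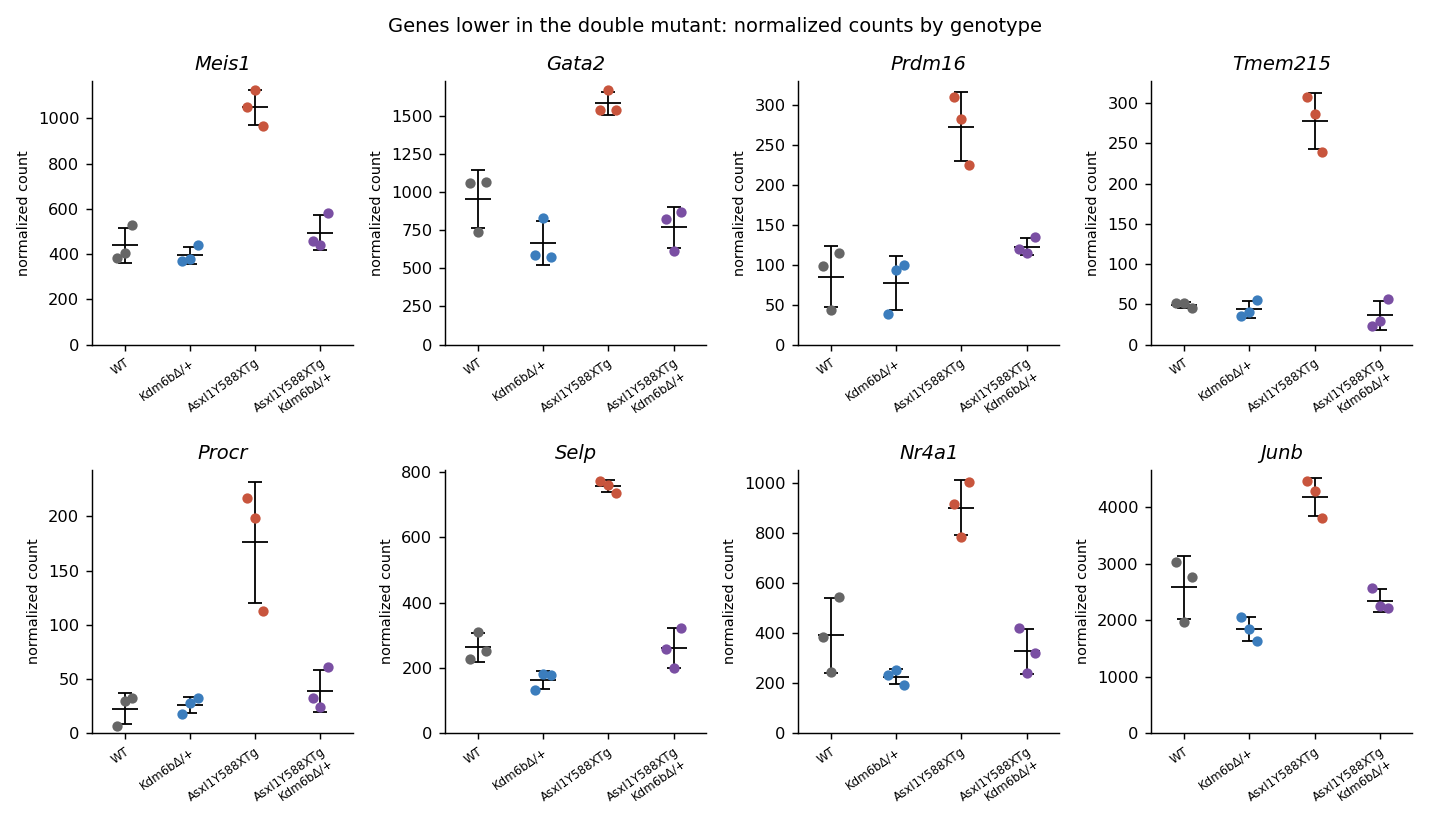
Normalized counts (y axis, from 0) of 8 genes in the 4 genotypes (x axis); points are the 3 libraries of a genotype, bars the mean ± SD. In each panel the 3 double-mutant libraries lie below the 3 Asxl1Y588XTg libraries.

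A list of HSC surface and membrane genes, which also holds the exchange factor Fgd5, had a lower median still. Of 36 tested, 10 were called lower (1.59% of all genes tested) and 0 higher, with a median log2 fold change of −0.91. Procr (chromosome 2, 155751117 to 155755471), the protein C receptor used to isolate HSCs, had 217, 198 and 112 in Asxl1Y588XTg and 32.5, 24 and 60.9 in double-mutant libraries, a log2 fold change of −2.16 (SE 0.38, edgeR adjusted p = 0.0375). Esam, an adhesion molecule of HSCs and endothelium, fell from 242, 259 and 203 to 71.6, 60 and 77.4, with −1.73 (SE 0.17, edgeR adjusted p = 0.00162). The Esam groups were about 3-fold apart and neither spread much.

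The guanine exchange factor Fgd5 fell from 256, 246 and 250.2 to 69.3, 59 and 109, with −1.65 (SE 0.21, edgeR adjusted p = 0.00632). Jam2, a junctional adhesion molecule, fell from 143, 145 and 111 to 43.5, 27 and 41.3, with −1.81 (SE 0.24, edgeR adjusted p = 0.00632). Tek, the angiopoietin receptor TIE2, fell from 231, 271 and 222 to 74.5, 80 and 119.7, with −1.39 (SE 0.20, edgeR adjusted p = 0.00861), and its ligand gene Angpt1 from 2019, 2056 and 1665 to 959.7, 685 and 955, with −1.12 (SE 0.15, edgeR adjusted p = 0.0165). The receptor and the ligand of this signalling pair both fell. Cd34 and Kit, carried by many progenitors and chosen after their values were seen, had log2 fold changes of −0.20 (SE 0.08) and −0.16 (SE 0.09) and were not called.

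Hox genes gave low counts. Of 5 Hoxb genes tested, 2 were called lower (1.59% of all genes tested), and 5 of 5 had a negative log2 fold change (50.8% of all). Hoxb8 fell from 41.2, 45.3 and 48.6 to 1.48, 4 and 12.4, with −2.96 (SE 0.54, edgeR adjusted p = 0.0268), and Hoxb6 from 20.1, 19.1 and 17.2 to 2.21, 4 and 5.16, with −2.31 (SE 0.46, edgeR adjusted p = 0.0326). Hoxb5 had 25.1, 29.2 and 27.3 and 8.85, 4 and 13.4, which do not overlap, but its adjusted p of 0.0863 from edgeR missed the threshold. Of 6 Hoxa genes, 0 were called, while 6 of 6 had a negative log2 fold change with a median of −0.90.

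Genes outside these lists were among the largest falls, counting those whose normalized counts averaged at least 100. Tdrd9, a germline RNA helicase, went from 153, 318 and 86.1 to 17.7, 17 and 27.9, a log2 fold change of −3.14 (SE 0.54, edgeR adjusted p = 0.0474). Tmem215, a transmembrane protein, went from 308, 286 and 239 to 23.6, 29 and 56.7, with −2.93 (SE 0.30, edgeR adjusted p = 0.00452), and was called in all 13 alternatives. Tdrd9 varied widely among Asxl1Y588XTg libraries and lost its call in 5 alternatives.

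Collagen genes were among the large falls. Col18a1, a collagen of basement membranes, fell from 346, 413 and 279.6 to 47.2, 55 and 94.9, with −2.39 (SE 0.27, edgeR adjusted p = 0.00874). Col16a1 fell from 734, 604 and 449 to 189.6, 120.0 and 202, with −1.78 (SE 0.25, edgeR adjusted p = 0.0268). Over the 53 matrix genes tested, however, 4 fell, 1 rose (Col5a1) and the median was −0.06, close to that of all genes. The shares of all genes tested were 1.59% and 0.145%. Abca4, Sult1a1, Trim47, Dsg2, Clca3a1 and Clec1a completed the largest falls, with log2 fold changes from −2.20 to −1.87. Among them, Sult1a1 and Clec1a belong to the list of HSC surface and membrane genes above. Col18a1, Tdrd9, Sult1a1, Trim47, Abca4, Dsg2 and Clca3a1 overlap other genes, so their counts are uncertain where strand was not used.

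Several of these genes are also expressed by endothelial cells or megakaryocytes. Of 31 endothelial and stromal markers, 3 were called lower (Tek, Tie1 and Cldn5), against 1.59% of all genes tested, but the median was 0.19. The summed level of Cdh5, Pecam1, Kdr and Stab2, which define endothelium, was between 1115 and 1359 in Asxl1Y588XTg libraries. In double-mutant libraries it was between 1018 and 1092. These ranges do not overlap, and 2 of the 4 genes were lower. Of 36 megakaryocyte and platelet genes, 5 were called lower (1.59% of all genes tested), with a median of −0.20. Selp, the adhesion receptor P-selectin, fell from 772, 761 and 735 to 258, 201 and 322, with −1.52 (SE 0.15, edgeR adjusted p = 0.00265). The defining platelet genes Pf4, Ppbp and Gp9 summed to between 532 and 2069 in Asxl1Y588XTg and between 625 and 1031 in double-mutant libraries, which overlap. The part of these cell types in the falls was not tested.

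Immediate-early genes, which respond within minutes to signals or to handling of cells, were lower as a group. Of 32 tested, 6 were called lower, 0 higher and 31 had a negative log2 fold change, with a median of −0.53. Over all genes tested, 1.59% were called lower and 50.8% had a negative value. Nr4a1, an orphan nuclear receptor, fell from 917, 785 and 1004 to 422, 242 and 321, with −1.44 (SE 0.20, edgeR adjusted p = 0.0232). Junb, an AP-1 factor, fell from 4459, 4285 and 3803 to 2577, 2246 and 2222, with −0.82 (SE 0.08, edgeR adjusted p = 0.00183). Nr4a2 fell from 243, 183 and 209 to 93.7, 76 and 86.7, with −1.29 (SE 0.17, edgeR adjusted p = 0.00618). These 3 genes separated the groups fully, whereas Fos, chosen after its values were seen, did not, at 12182, 17470.5 and 8373 and 9433, 6088 and 3875. In the separate Kdm6bΔ/+ and WT libraries 29 of the 32 were also lower (50.8% of all genes tested), with a median of −0.42, and 0 were called.

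Smaller groups held single called members of interest. Of 35 imprinted genes 2 were called lower (1.59% of all genes tested), Dlk1 and Rian, which lie in 1 imprinted domain on chromosome 12, and the median was −0.07. Rian, a long non-coding RNA, had 28.2, 23.1 and 42.5 in Asxl1Y588XTg and 2.21, 4 and 4.13 in double-mutant libraries, with −3.16 (SE 0.45, edgeR adjusted p = 0.00874). Dlk1, a Notch-like ligand, had 18.1, 30.2 and 33.4 and 5.16, 4 and 10.3, with −2.05 (SE 0.45, edgeR adjusted p = 0.0468). Both genes were near absence in WT, at 0, 6.55 and 1.07 and 0, 0 and 4.28.

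Signalling genes were also among the falls. Il27ra, the interleukin 27 receptor, fell from 293, 257 and 211 to 104, 113 and 102, with −1.24 (SE 0.15, edgeR adjusted p = 0.00492). It was the only 1 of 46 hematopoietic cytokine receptors called, a share near the 1.59% of all genes tested that were called lower. Sema7a, a membrane-anchored semaphorin, fell from 230.4, 149 and 141 to 69.3, 75 and 101, with −1.07 (SE 0.23, edgeR adjusted p = 0.0468). In both genes the groups did not overlap.

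The 252 falls were divided by whether the gene was called higher in Asxl1Y588XTg than in WT cells. Of them, 140 were called higher there and 112 were not, where 1.58% of all genes tested were called higher. The 112 became 19 in one fit of all 4 genotypes, 2 with the Y-linked term, 16 and 13 without double-mutant replicates 1 and 2, and 165 without WT replicate 3. These 2 comparisons share the Asxl1Y588XTg libraries, so a high value in them moves both. Most of the 112 had nevertheless a positive difference in Asxl1Y588XTg against WT: 111 of 112 were above 0, 91 at an unadjusted p under 0.05, and their median log2 fold change was 1.10. Only 19 of the 112 lay under the 1.5-fold threshold against WT. Examples above it are Cdcp1, a transmembrane substrate of Src kinases, with −1.74 in the double mutant and 2.21 in Asxl1Y588XTg against WT, and Esam with −1.73 and 2.82. The choice of these 19 fixes a negative value in the double mutant against WT. In Kdm6bΔ/+ against WT 13 of the 19 were lower, 9 at an unadjusted p under 0.05, and the WT libraries were also used to choose them.

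Genes that fell from a level equal to that of WT were few. Hspa5 (chromosome 2, 34771970 to 34777547), the main chaperone of the endoplasmic reticulum, had 20236, 18925 and 25654 in WT, 17739, 19269 and 29099.9 in Kdm6bΔ/+, 19919.9, 21962 and 24927 in Asxl1Y588XTg and 13171, 15635 and 12767 in double-mutant libraries. All double-mutant libraries lay below all others, and the log2 fold change against Asxl1Y588XTg was −0.67 (SE 0.10, edgeR adjusted p = 0.012), with 0.04 (SE 0.13) for Asxl1Y588XTg against WT. Creld2, another protein of that compartment, fell from 993, 1207 and 1202 to 609, 739.9 and 715, with −0.71 (SE 0.10, edgeR adjusted p = 0.0089). Hsph1, a cytosolic heat shock protein, fell from 2045, 2402 and 2568 to 1307, 1126 and 1208, with −0.93 (SE 0.09, edgeR adjusted p = 0.00169).

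These are the 3 of 34 stress and unfolded protein response genes that were called, and 0 were called higher. Of the 34, 30 had a negative log2 fold change, with a median of −0.22, and 17 were lower at an unadjusted p under 0.05. Of all genes tested 50.8% had a negative value, and 9.81% were lower and 5.64% higher at an unadjusted p under 0.05. In Kdm6bΔ/+ against WT 7 of the 34 were lower, with a median of 0.09. Sdf2l1 and Manf, also of the endoplasmic reticulum and chosen after their values were seen, had log2 fold changes of −0.47 (SE 0.09, edgeR adjusted p = 0.0302) and −0.46 (SE 0.08, edgeR adjusted p = 0.0178), under the fold threshold. The interaction, which called 0.0126% of all genes tested, was −0.71 for Hspa5 with an edgeR adjusted p of 0.583, and a difference between the backgrounds was not shown.

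The 250 bases before the annotated starts of Hspa5 and Creld2 are shown because both hold the endoplasmic reticulum stress response element, the letters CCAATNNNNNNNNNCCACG on either strand, given in capitals. They are RefSeq windows of GRCm38.p6 on the plus strand, at chr2:34771840-34772089 and chr15:88819396-88819645.
Hspa5: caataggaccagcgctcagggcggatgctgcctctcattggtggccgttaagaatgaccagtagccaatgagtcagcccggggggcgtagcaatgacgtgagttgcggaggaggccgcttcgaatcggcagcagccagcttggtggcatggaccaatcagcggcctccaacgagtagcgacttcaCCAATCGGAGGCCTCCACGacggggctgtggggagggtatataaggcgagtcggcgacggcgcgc
Creld2: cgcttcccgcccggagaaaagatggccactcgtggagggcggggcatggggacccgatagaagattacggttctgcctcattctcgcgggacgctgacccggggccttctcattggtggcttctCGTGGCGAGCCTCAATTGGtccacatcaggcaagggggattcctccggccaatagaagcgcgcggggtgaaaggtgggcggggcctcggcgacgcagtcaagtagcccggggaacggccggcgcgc
The element was found in 37 of 32817 RefSeq windows of 250 bases (0.113%), in 3 of the 240 windows of genes that fell, those of Hspa5, Creld2 and Tdrd9, and in neither Hsph1 window. A match is a description of the letters only, and the GENCODE start of Hspa5 lies inside its window.

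A different pattern was seen for Bmpr1a, a receptor for bone morphogenetic proteins, which was low in both genotypes with the deletion. It had 819.7, 1021 and 830.1 in WT, 572, 556 and 422 in Kdm6bΔ/+, 961, 896 and 896 in Asxl1Y588XTg and 502, 518 and 662 in double-mutant libraries. The log2 fold change was −0.70 (SE 0.11, edgeR adjusted p = 0.0151) on the Asxl1 mutant background and −0.79 (SE 0.14, edgeR adjusted p = 0.0996) on the WT background, where it was not called. Pgr, the progesterone receptor, and 2610507I01Rik, both chosen after their values were seen, had −1.31 and −0.65 on the mutant background and −2.04 and −0.88 on the WT background. Neither gene was called on the WT background, and 2610507I01Rik lies on chromosome 11 at −10.2 Mb from Kdm6b.

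Across all 252 falls, the separate Kdm6bΔ/+ and WT libraries gave a smaller and mixed picture. There 158 (62.7%) had a negative log2 fold change, against 50.8% of all genes tested, with a median of −0.16. None of the 252 were called by edgeR (0.019% of all genes tested were called lower), and 26 were lower at an unadjusted p under 0.05, against 2.19% of all genes. Against WT, edgeR called 0 of the 252 in the double mutant (0.0695% of all genes tested were called lower and 0.145% higher), and 10 were lower and 50 higher at an unadjusted p under 0.05. The corresponding shares of all genes tested were 3.06% and 3.73%. Sex is fully confounded with genotype in the double mutant against WT.

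The genes that rose were of another kind, and several rose with the deletion on both backgrounds. Of the 23, 6 were also called higher in Kdm6bΔ/+ than in WT (0.0758% of all genes), in libraries that the first comparison did not use. They are Gm5823, Eif5al3-ps, Nlrp1b, Fam71b, Gm18860 and Nnt, of which Eif5al3-ps and Fam71b are named after their values were seen. Nlrp1b (chromosome 11, 71153102 to 71230733), an inflammasome sensor, had 26.2, 7.04 and 10.1 in Asxl1Y588XTg and 161, 188 and 185 in double-mutant libraries. Its log2 fold change was 3.62 (SE 0.38, edgeR adjusted p = 0.00409), and 4.39 (SE 0.35, edgeR adjusted p = 0.000214) on the WT background.

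Nnt (chromosome 13, 119335448 to 119408997), a mitochondrial transhydrogenase, had 1308, 1307 and 1298 in WT, 3070.0, 2167 and 3359.6 in Kdm6bΔ/+, 1139, 1193 and 1249.9 in Asxl1Y588XTg and 2891, 1959.8 and 2848 in double-mutant libraries. All 6 libraries with the deletion lay above all 6 without it, with log2 fold changes of 1.12 (SE 0.15, edgeR adjusted p = 0.0209) and 1.14 (SE 0.14, edgeR adjusted p = 0.0109). Nnt and Nlrp1b are known to differ between inbred mouse strains, and Nnt carries a deletion in C57BL/6J. Whether strain background differed between these mice was not tested. Gm5823, a predicted gene, had 3 counts or fewer in every Asxl1Y588XTg library and was at least 40.6-fold higher in the double mutant, set against 3 counts per library. Pseudogenes such as Eif5al3-ps share sequence with their parent genes, and Nlrp1b has close relatives beside it, so these counts are uncertain.

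Pttg1 (chromosome 11), the anaphase inhibitor securin, rose from 159.9, 149.9 and 161 to 361, 380.0 and 385, with 1.27 (SE 0.11, edgeR adjusted p = 0.000887). It was the only 1 of 73 cell cycle genes called, where 1.59% of all genes tested were called lower and 0.145% higher. It had 2.17 on the WT background with an adjusted p of 0.0703 from edgeR. Several rises had values near 0 there. Cnn3, an actin-binding protein, rose from 201, 178 and 131 to 349, 284 and 318, with 0.92 (SE 0.16, edgeR adjusted p = 0.0209), and had −0.07 (SE 0.17) in Kdm6bΔ/+ against WT. Cd33, a myeloid surface lectin chosen after its values were seen, rose from 2648, 2600.4 and 2124 to 4071, 3669.6 and 3428, with 0.62 (SE 0.09, edgeR adjusted p = 0.0119). Gpr137c, Itga1 and Col5a1 rose by log2 fold changes from 0.63 to 0.74. Igkv1-135 rose from 42.3, 77.5 and 78 to 181, 309 and 227, with 1.87 (SE 0.27, edgeR adjusted p = 0.0161), and is an immunoglobulin segment with close copies. On the WT background Igkv1-135 had 0.93 (SE 0.27) and was not called. Of 144 such segments 3 were called higher (0.145% of all genes tested) and the median was 0.91. In Kdm6bΔ/+ against WT their median was 0.71, with 0 called and 28 higher at an unadjusted p under 0.05, against 205 of all 15825 genes. The plasma cell markers Jchain, Sdc1 and Ighg2b summed to between 5853 and 6509 in Asxl1Y588XTg and between 5999.7 and 8005 in double-mutant libraries. The wider list of plasma cell and immunoglobulin constant genes summed to between 22695 and 47478 and between 50411 and 64390, which do not overlap. Nor did its sums in WT, between 22773 and 27153, and in Kdm6bΔ/+, between 35511 and 42504. The part of plasma cells in this was not tested.

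**Figure D2:**
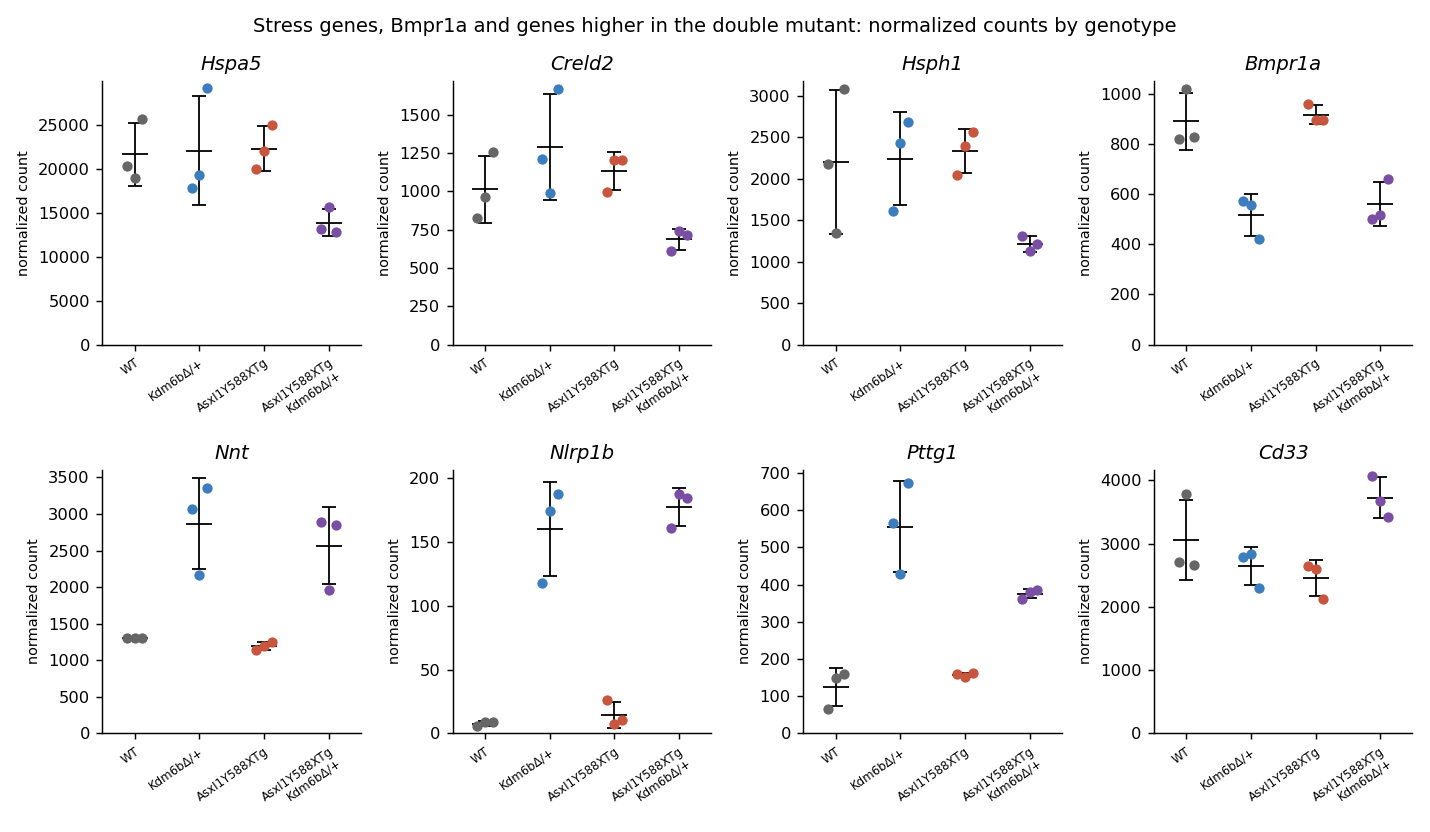
Normalized counts (y axis, from 0) of 8 genes in the 4 genotypes (x axis); points are the 3 libraries of a genotype, bars the mean ± SD. Hspa5, Creld2 and Hsph1 are lowest in the double mutant, Bmpr1a is low and Nnt, Nlrp1b and Pttg1 are high in both genotypes with the deletion, and Cd33 is higher in the double mutant than in Asxl1Y588XTg.

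**Figure D3:**
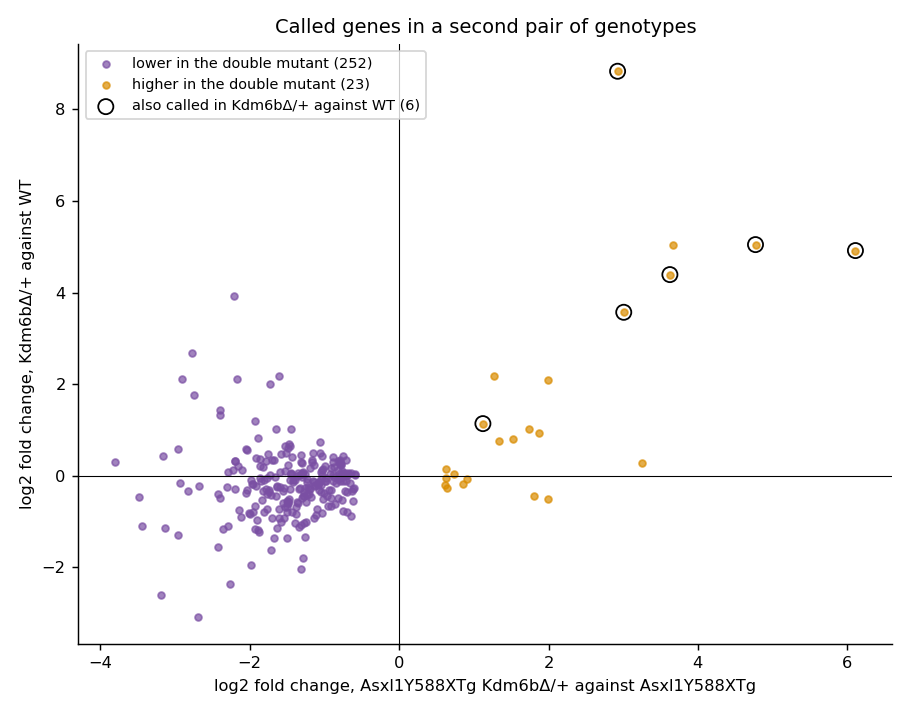
Log2 fold changes of the 275 called genes in Asxl1Y588XTg Kdm6bΔ/+ against Asxl1Y588XTg (x axis) and, in other libraries, in Kdm6bΔ/+ against WT (y axis); each point is a gene. The 6 circled genes were called in both, and all of them rose.

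The neighbourhood of Kdm6b on chromosome 11 was examined separately, since sequence linked to a floxed allele is inherited with it. Of 305 genes tested with a start within 10 Mb of Kdm6b, 8 were called lower (2.62%) and 1 higher (0.328%), against 1.59% and 0.119% of genes on other chromosomes. The 8 falls were Aldh3a1, Aspa, Camkk1, Chrnb1, Rcvrn, Scarf1, Spns2 and Tmem102, and the rise was Nlrp1b. Scarf1, a scavenger receptor, fell from 523, 533 and 497 to 190.3, 223 and 273, with −1.17 (SE 0.13, edgeR adjusted p = 0.00308), and Spns2, a transporter of sphingosine 1-phosphate, from 1093, 1084 and 949 to 504, 429 and 528, with −1.08 (SE 0.10, edgeR adjusted p = 0.00146). In Kdm6bΔ/+ against WT 0 genes within 10 Mb were called lower and 2 higher. Over the whole chromosome, 18 of 1204 genes fell and 5 (0.415%) rose on the mutant background, against 0.119% that rose on other chromosomes. The 5 rises were Nlrp1b, Timd4, Fam71b, Pttg1 and Gm12663, at 1.8, −22.6, −23.0, −26.0 and −52.8 Mb from Kdm6b. In Kdm6bΔ/+ against WT they had log2 fold changes of 4.39, 2.08, 3.57, 2.17 and 5.04. Only Nlrp1b and Fam71b were called there. Gm12663 had 3 counts or fewer in every Asxl1Y588XTg library, so its values are uncertain. The part of linked sequence in this was not tested.

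**Figure D4:**
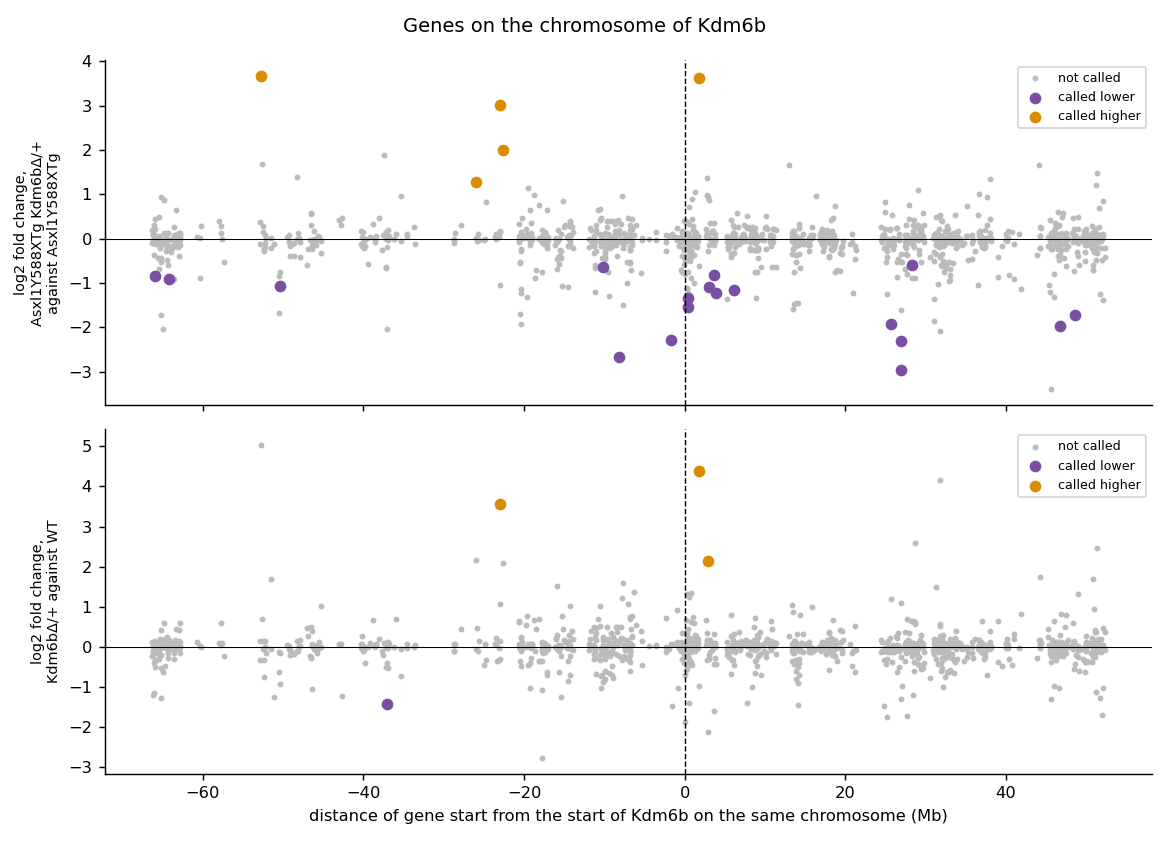
Log2 fold change (y axis) of genes on the chromosome of Kdm6b against the distance of their start from that of Kdm6b in Mb (x axis), in Asxl1Y588XTg Kdm6bΔ/+ against Asxl1Y588XTg (top) and in Kdm6bΔ/+ against WT (bottom). Colored points are called genes, 18 lower and 5 higher in the top panel, and the dashed line is Kdm6b.

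Some gene groups had a negative median and no called member. Of 56 interferon-stimulated genes 50 had a negative log2 fold change, with a median of −0.55 and 21 lower at an unadjusted p under 0.05, but edgeR called 0. The shares of all genes tested were 50.8% negative and 9.81% lower at that p. In Kdm6bΔ/+ against WT 21 of the 56 were negative, with a median of 0.08. Ifi44, chosen after its values were seen, had 173, 90.6 and 53.7 in Asxl1Y588XTg and 31, 32 and 28.9 in double-mutant libraries, with an edgeR adjusted p of 0.0636. Of 32 T and NK cell genes 28 were negative, with a median of −0.80, and edgeR called 0, with 4 lower at an unadjusted p under 0.05, a share near that of all genes. In Kdm6bΔ/+ against WT 27 of these 32 were negative, 16 at an unadjusted p under 0.05 (2.19% of all genes tested), with a median of −0.87. The markers Cd3e, Cd3g, Klrb1c and Ncr1 summed to between 101 and 562 in Asxl1Y588XTg and between 104 and 127 in double-mutant libraries, so the ranges overlap. Their part in the other results was not tested.

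Chromatin genes moved little. No member of PRC2 (13 tested), PRC1 (25), the ASXL and BAP1 complex (11) or the JmjC demethylases (27) was called by edgeR, with medians of −0.01, −0.02, 0.06 and 0.04. At an unadjusted p under 0.05, 1, 3, 1 and 2 of them were lower and 1, 1, 2 and 1 higher, where 9.81% and 5.64% of all genes were. Asxl1 itself had 0.07 (SE 0.07), and Kdm6a, the X-linked relative of Kdm6b, −0.51 (SE 0.23). Kdm6a was low in each library with Y-linked transcripts, at 2163, 1233 and 2150.4 in Asxl1Y588XTg and 1293, 1303 and 1259 in the double mutant. Genes of erythroid cells (48 tested) and neutrophils (40) had 0 called members, with medians of 0.14 and 0.09. Of these, 18 and 9 had a negative log2 fold change, against 50.8% of all genes tested. The defining erythroid markers Hba-a1, Hbb-bs, Alas2 and Slc4a1 were all 4 negative, and summed to between 3042 and 9483 in Asxl1Y588XTg and between 1754 and 3489 in double-mutant libraries, which overlap.

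**Figure D5:**
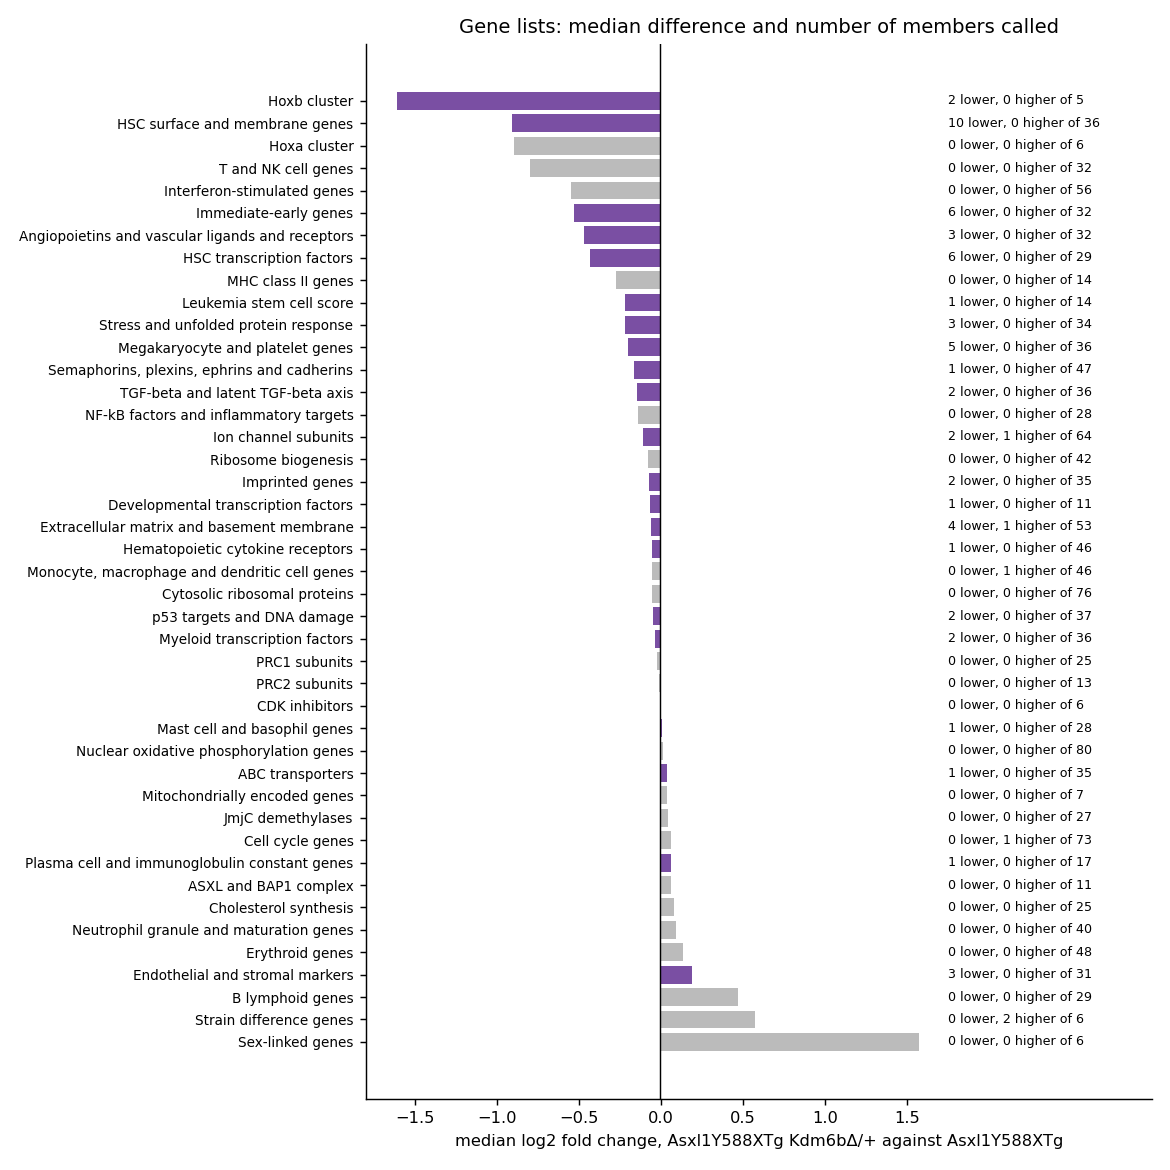
Median log2 fold change (x axis) of the tested genes of the lists shown (y axis) in Asxl1Y588XTg Kdm6bΔ/+ against Asxl1Y588XTg; purple bars have at least 1 member called lower, the line is the median of all genes tested, and the numbers give the calls. The list of HSC surface and membrane genes has 10 of 36 called lower.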

How the data were processed

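RNA of LK cells was sequenced from 3 mice of each of 4 genotypes, one library per mouse. The authors trimmed reads with Trimmomatic, aligned them with STAR to mm10 and counted them with HTSeq; the deposited values are raw counts of 55291 genes. Annotation and strand setting of the counting: not given in the sources used here. The labels name an NEB Ultra kit and a NextSeq sequencer, the study's methods a stranded KAPA kit and a HiSeq sequencer.

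Groups came from the sample labels. In R 4.3.3, edgeR 4.0.16 kept 15825 genes (filterByExpr, 4 groups), scaled libraries by TMM, and tested each pair of genotypes on its 6 libraries with the robust quasi-likelihood test and Benjamini-Hochberg adjustment over all genes tested. Standard errors came from the F statistic. The interaction used 12 libraries. An exact permutation test of 3 against 3 cannot go below 0.1. Steps were tested on simulated data. P-values measure the spread between these mice.

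Named genes were Kdm6b, Asxl1, Kdm6a and genes the study names; called genes without overlap between groups whose normalized counts averaged at least 100 (10 largest falls, 8 largest rises, and 8 largest falls not raised in Asxl1Y588XTg); up to 4 called members of each list; called genes within 10 Mb of Kdm6b, Nnt, Xist and Ddx3y. Some items chosen by this rule are not reported here. Members and lists were chosen with earlier results of these data known. Alternatives were DESeq2 1.42.0, RLE scaling, no filter, a mean count of at least 50, all 4 genotypes in one fit, a term for Y-linked transcripts, the replicate number as a block, and leaving out each library. Positions are from GENCODE vM21 (mm10). Promoter windows, from RefSeq, gave values for 68.6% of genes tested, so a check of their base composition is void.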

Additional observations from a re-analysis of the deposited data

Results flagged for a closer look

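For 2 named genes the effect of the Kdm6b deletion differed between the Asxl1 mutant and the WT background by a test of the interaction over all 12 libraries (0.0126% of genes tested were called). Tmem215 had an interaction of −2.77 (SE 0.41, edgeR adjusted p = 0.0431) on the log2 scale, with −2.93 on the mutant and −0.17 on the WT background. Scarf1 had −1.51 (SE 0.21, edgeR adjusted p = 0.0431), with −1.17 and 0.33. In each, all 3 double-mutant libraries lay below all 3 Asxl1Y588XTg libraries. Neither call held when any one library of WT or Kdm6bΔ/+ was left out.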

How the results depend on the processing

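With RLE scaling the counts of calls stayed within 1.5 times of the reported ones. The falls, the rises and the falls not raised in Asxl1Y588XTg numbered 391, 55 and 113 with DESeq2, 667, 145 and 273 without an expression filter, 167, 14 and 64 with a mean count of at least 50, 150, 12 and 19 with all 4 genotypes in one fit, and 43, 5 and 2 with the Y-linked term. Genes called in Kdm6bΔ/+ against WT (15) numbered 39 with DESeq2, 53 without a filter and 7 in one fit, and those in the double mutant against WT (34) numbered 114, 182 and 14. Interaction calls (2) numbered 66 with DESeq2, 258 without a filter and 0 with a mean count of at least 50.

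Leaving out one library gave 49 to 251 falls, 7 to 56 rises, 13 to 165 falls not raised, 7 to 26 genes in Kdm6bΔ/+ against WT, 14 to 50 in the double mutant against WT, and 0 to 10 in the interaction. Fits with one library fewer have 2 samples in a group. Replicate numbers are shared by label only: same-numbered libraries of the 2 genotypes deviated with r = −0.09, −0.08 and −0.05. With the replicate block 58 genes fell, 13 rose and 32 fell without being raised, and 66 were called in the double mutant against WT.

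Of the values of named genes under the alternatives, 822 kept their side of the threshold and direction, 361 lost their call and 5 gained one. The Y-linked term reversed the log2 values of Asxl1 (−0.0011), Kdm6a (0.019) and Xist (0.35). The causes were not tested.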
